A study of Mus musculus with 12 samples.

Results

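The genes described here encode the machinery that reads DNA into RNA: the subunits of the RNA polymerases I, II and III (Polr1, Polr2 and Polr3), the Mediator subunits (Med), the TBP-associated factors (Taf) and the general transcription factors of RNA polymerase II (Gtf2). They were chosen by a rule on names, set with earlier results of these data known. It takes every gene of the deposited table whose symbol starts with Polr1, Polr2, Polr3 or Gtf2 or is a numbered Med or Taf symbol, with Taf4b left out. The rule gave 97 of the 56691 genes of the table. They divide into 28 polymerase genes, 30 Mediator genes, 22 Taf genes, 16 Gtf2 genes and the pseudogene Polr2k-ps, which had 0 counts in all 12 libraries.

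As background, RNA polymerase II transcribes protein-coding genes, RNA polymerase I the large ribosomal RNAs, and RNA polymerase III transfer RNAs and other small RNAs. General factors assemble with polymerase II at a promoter: TFIID, built from TBP and Taf proteins, recognises the core promoter, TFIIA and TFIIB steady it, TFIIF arrives with the polymerase, and TFIIE and TFIIH open the DNA. Mediator, with head, middle, tail and kinase modules, carries signals from enhancer-bound factors to the polymerase. A fully grown mouse oocyte has stopped transcribing and runs meiotic maturation on stored messenger RNA, so its transcripts of this machinery are a store that can be kept or lost but not replaced until the embryo starts transcription.

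The 12 libraries hold messenger RNA of mouse oocytes that were wild type (WT) or Alkbh5-/- (KO). Each genotype has 2 libraries at the germinal vesicle (GV) stage, 2 after germinal vesicle breakdown (GVBD) and 2 at metaphase II (MII). ALKBH5 removes the methyl group of N6-methyladenosine from RNA, and the comparisons ask how its loss alters maternal transcripts as they are cleared. Each library was made, by the study's methods, from a small pool of zona-free oocytes of juvenile C57BL/6 females primed with gonadotropin, with synthetic ERCC RNA added to the lysate, and the 2 libraries of a group are described as independent biological samples. KO oocytes came from a total knockout in which CRISPR-Cas9 removed the first exon of Alkbh5 in the whole animal. By the methods, oocytes of both genotypes were kept in medium with milrinone, which holds them at GV, and matured after it was washed out. GVBD and MII samples were defined by time in culture, so a library named for a stage may hold oocytes of an earlier one, in a share that is not known. The study reports that most KO oocytes in culture failed to undergo GVBD. It also reports that far fewer KO than WT oocytes extruded the first polar body. That share may thus differ between the genotypes, and its part in KO values at GVBD and MII cannot be told apart.

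Library totals ran from 28557742 to 40247810 counts. Alkbh5 had scaled counts of 3020 to 13653 in the 6 WT libraries and 50.9 to 260 in the 6 KO libraries. Scaled counts, used below unless another scale is named, are read counts divided by the library's ERCC total and multiplied by the mean ERCC total, so that they follow RNA per added spike-in. Summed markers of oocytes reached 13937 to 27759 CPM (counts scaled to the library total) and those of granulosa cells, the somatic cells around an oocyte, 40.6 to 87.8. Of the 15 granulosa markers, Amhr2 was at 0 in 12 libraries, Amh in 11 and Foxl2 in 10, while Cyp19a1, with 611 to 2335 scaled counts, made up most of the sum, and Nr5a2, Kitl, Fshr and Inhba were above 0 in all 12. Spike-in scaling left a difference within groups: among the 89 members that reached a mean of 50 counts, the median of replicate 2 over replicate 1 was -0.67 on the log2 scale for WT at MII and -1.22 for KO at MII, and all 89 were lower in replicate 2 in KO MII. At GV and GVBD it was -0.15 and -0.56 in WT, and -0.22 and -0.15 in KO. In such bulk libraries fewer intact oocytes and less RNA per oocyte cannot be told apart.

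The subunits of RNA polymerase II showed very unequal transcript levels in WT GV oocytes. Levels between genes are given per kilobase (kb) of the annotated transcript. Polr2k, a small subunit shared by the 3 polymerases, stood highest, at 121059 scaled counts per kb, and Polr2a, which encodes the catalytic largest subunit, lowest of the 13, at 38.2, a ratio of 3169. Polr2a had scaled counts of 168 and 347 in the 2 WT GV libraries, where Polr2k had 63349 and 55047. Polr2b, which forms the active centre together with Polr2a, had 7090 and 5985, or 1577 per kb. Transcripts of the 2 subunits that form the active centre thus differed far more than their replicates did. The order from the top was Polr2k, Polr2g, Polr2j, Polr2d and Polr2i, and these 5 kept that order when the union of all exons was used as the length, with a ratio of 2599. Polr2a was also the lowest of the 13 in each of the other 5 groups, where it ranged from 24.9 to 48.6 per kb.

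RNA polymerases I and III had the same kind of spread. Polr1d, a subunit shared by polymerases I and III, was highest of the 5 Polr1 genes at 13414 per kb and Polr1b, the second-largest subunit, lowest at 25.0, while Polr1a, the largest subunit, had scaled counts of 1043 and 838 in WT GV. Of the 10 Polr3 genes 8 reached a mean of 50 counts, and among them the small subunit Polr3k led at 3763 per kb and Polr3d was lowest at 34.4. The largest subunits Polr3a and Polr3b had 6195 and 5608, and 1005 and 707, scaled counts in WT GV. Across 93 members tested between GV and MII, the level per kb fell with transcript length (Pearson's r = -0.67 and Spearman's rho = -0.63 on the log2 scale, across genes that share libraries and are not independent). Level and length share the length in their definition, and the part that amplification of full-length cDNA plays in this relation was not tested.

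Mediator genes spread as widely, with a ratio of 4054 between the highest and the lowest level per kb. Of the 29 that reached a mean of 50 counts, Med21 of the middle module was highest in WT GV at 49462 per kb, followed by Med27 of the tail at 30849 and Med6 of the head at 21799. With the union of exons as the length, Med6 was highest instead, at 15954, and Med21 came after Med6, Med27 and Med31. The 4 genes of the kinase module, which binds Mediator reversibly, were all low: Med13 had 58.6 per kb, Med13l 42.1, Med12 25.1 and Med12l 12.2. Med14, the backbone that joins the modules, had scaled counts of 448 and 760 in WT GV, Med17 of the head had 2984 and 2963, and Med1, a contact for nuclear receptors, had 967 and 804. Within the head Med6 was highest and Med18 lowest (118), within the middle Med21 and Med9 (54.0), and within the tail Med27 and Med24 (66.7).

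**Figure D1:**
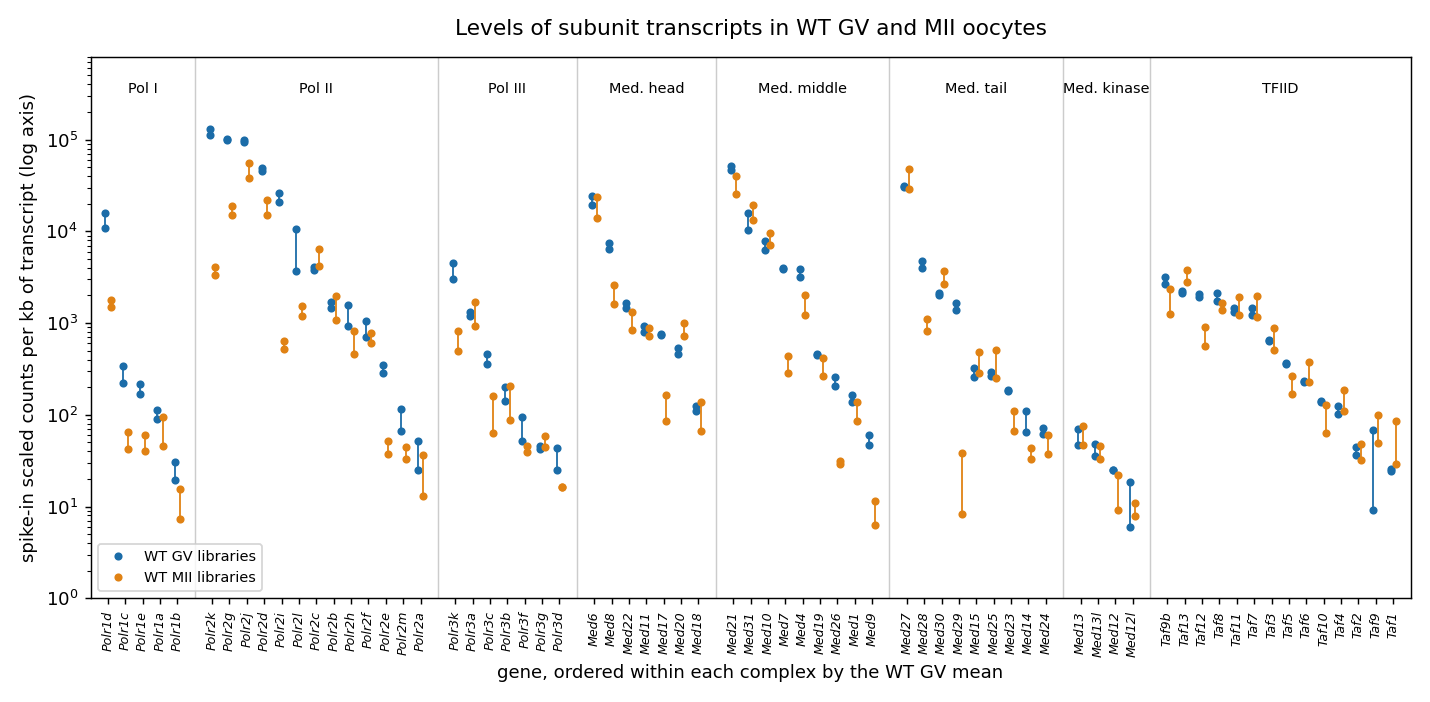
Scaled counts per kb of transcript (log axis) for the polymerase, Mediator and TFIID genes that reached a mean of 50 counts, ordered within each complex by the WT GV mean. Each point is a library, lines join the 2 libraries of a group, blue is WT GV and orange WT MII. Polr2k sits at 121059 and Polr2a at 38.2 per kb in WT GV, and the orange points of Polr2k, Polr2i, Med7 and Med29 lie far below the blue ones.

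Among the TFIID genes, 14 of 15 reached a mean of 50 counts, and Taf9b was highest in WT GV at 2924 per kb and Taf1, the largest subunit, lowest at 25.1. Taf7l, a paralogue of Taf7 known from germ cells, had 0 counts in 9 of the 12 libraries. The selectivity factor SL1 of polymerase I had Taf1a at 15568 per kb and Taf1b at 1005 (with the union of exons as the length Taf1d was lowest, at 295), while Taf1c had a mean of 11.2 counts. Of the Gtf2 genes, Gtf2b, the only gene for TFIIB, had 11482 per kb and Gtf2h5, the smallest TFIIH subunit, 10658, against 289 for Gtf2h3. In TFIIA Gtf2a2 had 2393 per kb and Gtf2a1 256 (by the union of exons Gtf2a1l was highest, at 1019), in TFIIE Gtf2e2 had 1161 and Gtf2e1 126, and in TFIIF Gtf2f2 and Gtf2f1 were near each other at 1037 and 944. Gtf2ird1 had 814 per kb and its relative Gtf2i 27.0, and of the SAGA genes Taf6l had 179 and Taf5l 73.0. Taf15, an RNA-binding protein, had 85.9.

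Several pairs of paralogues were unequal in WT GV oocytes. Taf9b had scaled counts of 8397 and 7000 and Taf9 17.8 and 134, or 2924 and 38.7 per kb. Exons of Taf9 overlap those of Ak6 on the same strand, so reads of the 2 genes may not be separable. Gtf2a1l, a form of the large TFIIA subunit known from germ cells, had 1187 per kb against 256 for Gtf2a1 in WT GV, and 639 against 369 in WT MII. Polr3g had 44.1 per kb and Polr3gl, its alternative in polymerase III, 25.1. Med13 and Med13l had 58.6 and 42.1 per kb. Taf5 (365 per kb) exceeded its SAGA counterpart Taf5l (73.0), while Taf6 and Taf6l had 233 and 179 in WT GV and 302 and 25.9 in WT MII. Med12 had 25.1 per kb beside 12.2 for Med12l, whose libraries differed (202 and 66.3 scaled counts).

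From GV to MII, 24 of 93 tested members were lower in WT oocytes and 0 were higher. A gene is called different here when the edgeR quasi-likelihood test gave a Benjamini-Hochberg adjusted p, over all genes tested, under 0.05 and a log2 fold change of at least 1 in size. Among all genes tested, 30.5% were called lower and 0.393% higher, so the 25.8% of members called is near the share of genes in general. The median log2 fold change was -0.62 for the members and -1.06 for all genes. The polymerases accounted for 12 of the 24 calls, Mediator for 7, the Taf genes for 2 and the Gtf2 genes for 3.

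Med29, a tail subunit of Mediator, fell most. In WT its scaled counts were 2118 and 1768 at GV, fell to 797 and 646 by GVBD and ended at 49.5 and 10.6 at MII. The stages did not overlap, and the log2 fold change from GV to MII was -6.05 ± 0.63 (SE; edgeR adjusted p = 3.5e-19). In KO oocytes Med29 started from 2869 and 2739 at GV, stood at 2069 and 3156 after GVBD and reached 77.1 and 27.9 by MII, a log2 fold change of -5.74 ± 0.83 (edgeR adjusted p = 0.030). In KO the GV and GVBD libraries overlapped.

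The small subunits of RNA polymerase II came next. Polr2i went in WT from 21627 and 17042 scaled counts at GV through 10870 and 7044 to 518 and 425, a log2 fold change from GV to MII of -5.36 ± 0.55 (SE; edgeR adjusted p = 1.8e-19). Polr2k had 63349 and 55047, then 73712 and 45028, then 2020 and 1624, a change of -5.02 ± 0.52 (edgeR adjusted p = 9.1e-20). The GV and GVBD libraries of Polr2k overlapped, and those of Polr2i did not. In KO MII, Polr2i had 5600 and 472 and Polr2k 10795 and 2289, values that differ between the replicates by more than the WT MII libraries do. The other 4 Polr2 genes called lower in WT were Polr2e (-2.82), Polr2g (-2.56), Polr2l (-2.38) and Polr2d (-1.34). The catalytic pair did not pass: Polr2a changed by -0.62 ± 0.59 (adjusted p = 0.48) and Polr2b by -0.03 ± 0.47 (adjusted p = 0.97). In consequence the highest of the 13 Polr2 genes per kb was Polr2j in WT MII, at 47260, and the ratio of highest to lowest was 1898. Exons of Polr2i overlap those of Tbcb on the other strand, and whether the counts were made by strand is not stated. Among other members, exons of Med29, Med7 and Med31 also overlap those of a gene on the other strand. Exons of Med20 and Taf1d overlap exons on the same strand as well.

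In polymerase I, 3 of 5 genes were called lower in WT, where 30.5% of all genes were: Polr1d (-3.04), Polr1c (-2.42) and Polr1e (-1.93). Polr1d, shared with polymerase III, had scaled counts of 19118 and 12970 in WT GV and 2128 and 1782 in WT MII (log2 fold change -3.04 ± 0.50, SE; edgeR adjusted p = 2.4e-08). The largest subunits did not pass, with -0.53 for Polr1a and -1.13 for Polr1b. In polymerase III, 3 of 10 were called, with Polr3k at -2.51 and Polr3c at -1.89, while Polr3a and Polr3b had 0.08 and -0.22. In each of the 3 polymerases, then, calls were made among smaller subunits and not for the 2 largest. No test of that grouping was made, and it was noticed after the values were seen.

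In Mediator, 2 of 7 head genes (Med17 and Med8), 3 of 9 middle genes (Med7, Med26 and Med9), 2 of 10 tail genes (Med29 and Med28) and 0 of 4 kinase-module genes were called lower in WT, beside 30.5% of all genes. Med7 went in WT from 10088 and 9799 scaled counts through 13592 and 9082 at GVBD to 1125 and 729, a log2 fold change of -3.42 ± 0.52 (SE; edgeR adjusted p = 9.9e-10). As for Polr2k, its GV and GVBD libraries overlapped. Med17, the scaffold of the head, went from 2984 and 2963 to 644 and 336 (-2.60). Med8 changed by -1.72 (edgeR adjusted p = 0.0022) and was not called without WT GV replicate 1 (adjusted p = 0.31) or replicate 2 (0.24). At the other end Med27 had 39193 and 38177 in WT GV and 60304 and 36491 in WT MII, a change of 0.32 ± 0.43, and Med20 and Med30 had 0.79 and 0.63, none of which passed.

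In TFIID 1 of 14 tested genes was called lower in WT, beside 30.5% of all genes: Taf12 (-1.45, edgeR adjusted p = 0.011). The median of the 14 was 0.15, above 0 where the median of all genes was -1.06. Taf1 had scaled counts of 147 and 152 in WT GV and 506 and 175 in WT MII (1.18 ± 0.58, adjusted p = 0.11), the highest change of the 93. No gene of SL1 (3 tested), TFIIA (3) or TFIIB (1) was called. Taf6l of SAGA (-2.80), Gtf2h5 of TFIIH (-2.35), Gtf2f2 of TFIIF (-1.45) and Gtf2e2 of TFIIE (-1.32) were called, each the member with the lowest value of its complex. Taf12, Gtf2f2, Gtf2e2 and Polr2d passed neither without WT GV replicate 1 (adjusted p = 0.41, 0.44, 0.42 and 0.38) nor without WT GV replicate 2 (0.38, 0.34, 0.50 and 0.36). Gtf2f2 also did not pass without WT MII replicate 2 (0.063).

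These counts depend on the scale. TMM scaling, which assumes that most genes keep their level, moved the median of all genes in WT from -1.06 to -0.14 on the log2 scale, and with it 21 members were called higher and 16 lower, where 8.47% and 16.2% of all genes were. The members called higher relative to the other transcripts of the oocyte were led by Taf1 (2.01), Med20 (1.72), Med30 (1.57) and Taf13 (1.51), and those called lower by Med29 (-5.27), Polr2i (-4.41), Polr2k (-4.07) and Med7 (-2.50). Med29, Polr2i, Polr2k, Med7 and Polr1d were called lower in all 11 alternatives of scaling, filter, model or left-out library. The count of called members was 9 without WT GV replicate 1, 14 without WT GV replicate 2, 35 without WT MII replicate 1 and 17 (1 of them higher) without WT MII replicate 2, while 15.1%, 14.6%, 30.3% and 15.9% of all genes were called lower. Poly(A) priming is part of the methods, and a loss of RNA cannot be told apart from a shortening of its tail in these counts.

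**Figure D2:**
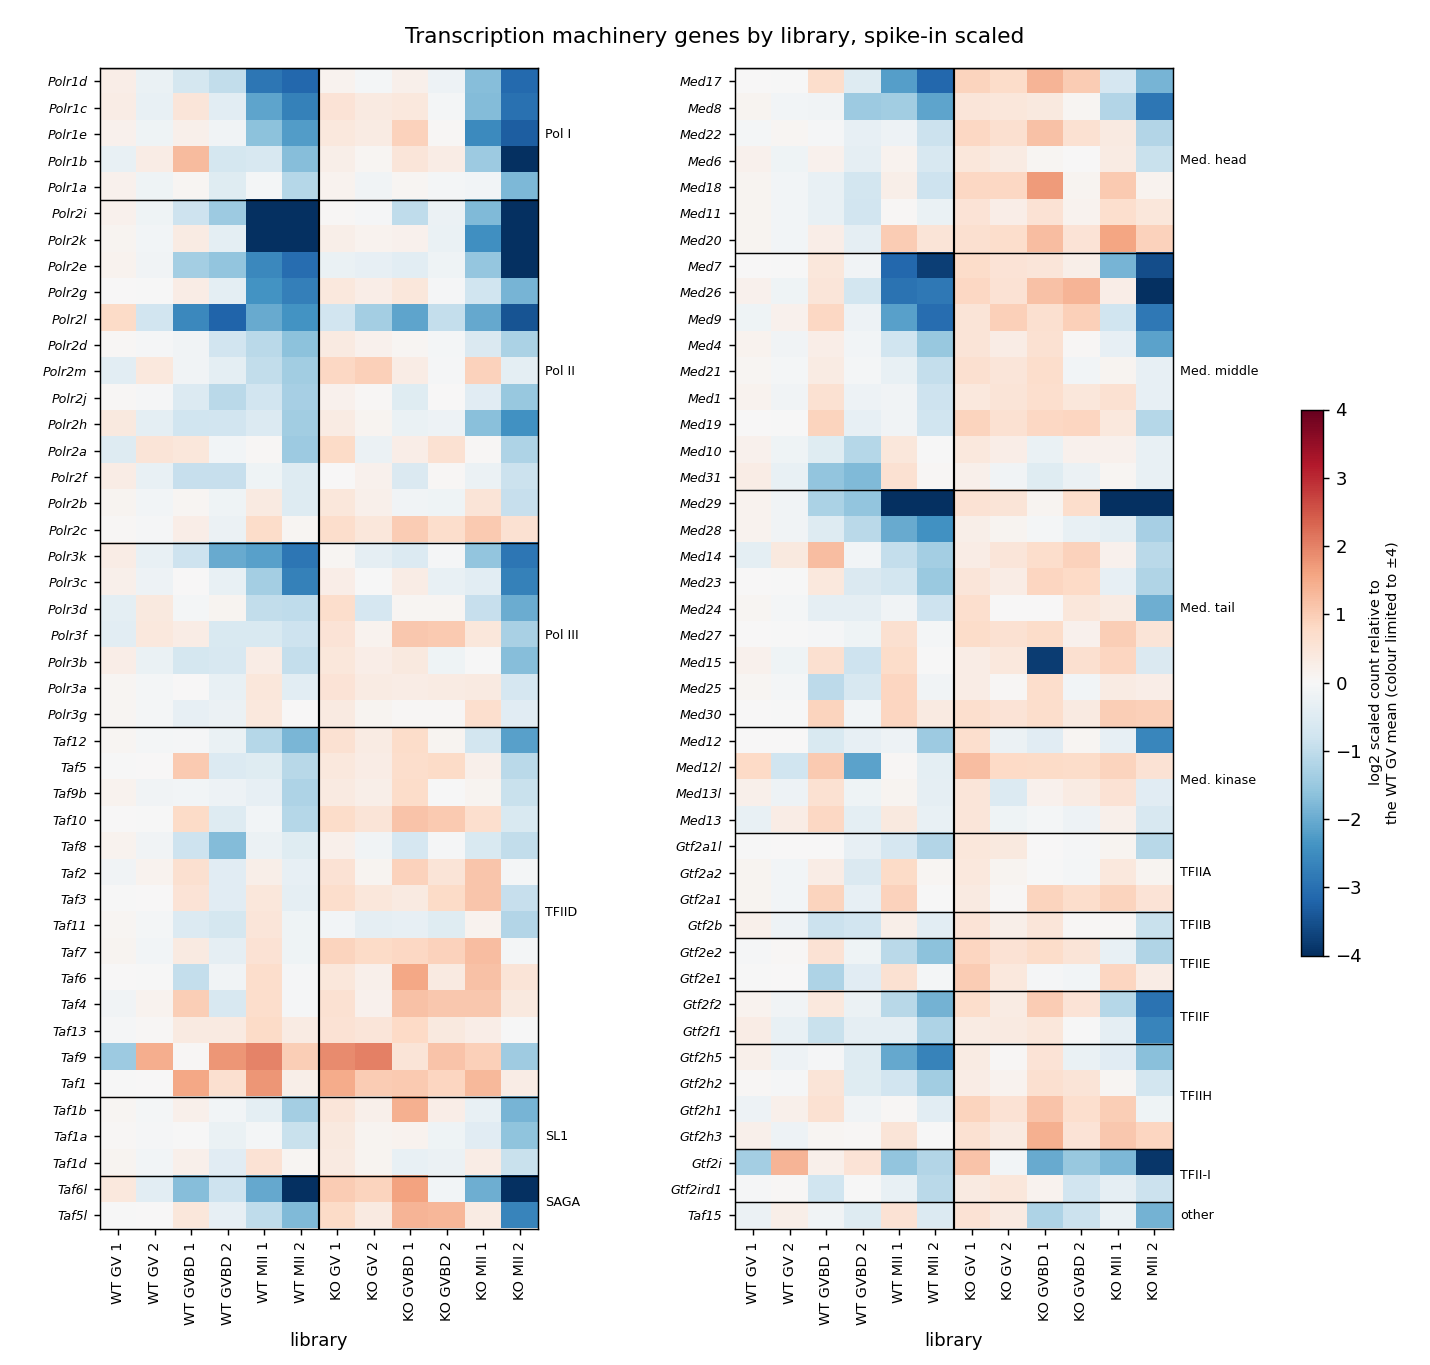
Members that reached a mean of 50 counts (88 rows, grouped by complex and ordered by the WT change from GV to MII) in the 12 libraries (columns; KO is Alkbh5-/-), as log2 scaled count relative to the WT GV mean, with the colour limited to 4 in either direction. Blue fills the MII columns for Polr2i, Polr2k, Med7 and Med29, most TFIID rows stay pale, and Med15 has 1 blue cell at 70.7 scaled counts in KO GVBD replicate 1. Values of KO MII replicate 2 are below those of replicate 1 in all 88 rows, though for Med29 both cells reach the colour limit.

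In KO oocytes 3 of 93 tested members were called lower from GV to MII and 0 higher, where 3.28% of all genes were called lower: Med29, Polr2k and Med7. Polr2k went from 69503 and 65523 to 10795 and 2289 (log2 fold change -3.37 ± 0.72, SE; edgeR adjusted p = 0.042) and Med7 from 16379 and 14517 to 2722 and 859 (-3.11 ± 0.68, edgeR adjusted p = 0.045). All 3 passed narrowly, and none passed without KO GV replicate 1 or without KO GV replicate 2, which leaves a count of 0. Without KO MII replicate 1, the KO MII library with more RNA per spike-in, 60 members (64.5%) were called lower beside 59.4% of all genes, and without KO MII replicate 2 the count was 18 (19.4%) beside 21.5%. The part of the spread between the KO MII libraries in these counts was not tested further. With TMM scaling 4 members were called higher and 4 lower in KO, against 1.19% and 3.87% of all genes. DESeq2 called 28 members lower in WT and 15 in KO, beside 29.1% and 16.3% of all genes. All 12 libraries in 1 model gave 21 and 16, beside 22.2% and 17.1%. The contrast of 24 calls in WT with 3 in KO thus depends on the fit and does not show weaker loss in KO.

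The changes themselves were related between the genotypes. Over the 93 members the WT and KO log2 fold changes from GV to MII, which share no library, had a Pearson's r of 0.82 and a Spearman's rho of 0.82, as a description across genes, and the KO value was above the WT value for 38 of the 93. The median was -0.62 in WT and -0.78 in KO. The difference between the genotypes in this change was itself tested, and 0 of 93 members passed (0% of all genes did), with 2 members at an unadjusted p under 0.05 and 0 called by DESeq2. The difference was 2.69 ± 1.12 for Polr2i (SE; edgeR adjusted p = 0.78). In simulated data the test of this difference called 1 of 100 genes changed by 2 on the log2 scale and 12 of 100 changed by 3. A count of 0 therefore does not show that the changes were equal.

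**Figure D3:**
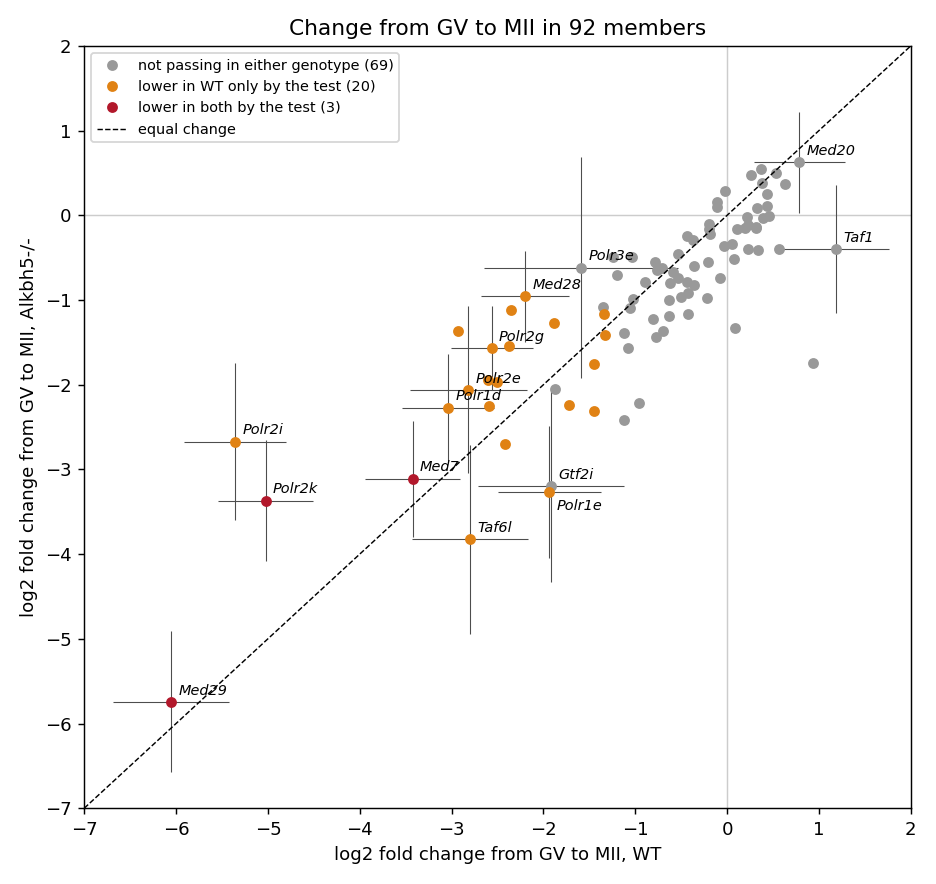
Log2 fold change from GV to MII in WT (x axis) and in Alkbh5-/- (y axis) of 92 members, with bars of 1 SE for the labelled genes and a dashed line of equal change. Grey genes passed in neither genotype, the 20 orange genes were called lower in WT, and the 3 red genes, Med29, Polr2k and Med7, in both. The colours follow the edgeR test, while DESeq2 called 15 members lower in KO. Polr2i lies above the line.

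From GV to GVBD none of 93 tested members was called in WT (0.0511% of all genes were) and none of 94 in KO (0.22%), by the edgeR test, with 11 and 2 at an unadjusted p under 0.05. DESeq2 called 3 members lower in WT (3.23%, beside 1.35% of all genes) and 0 in KO (1.09% of all genes). The lowest in WT was Polr2l, a small subunit of all 3 polymerases, whose scaled counts were 17552 and 6030 at GV, then 1719 and 1118, and finally 2557 and 1980 (log2 fold change from GV to GVBD -3.06 ± 0.57, edgeR adjusted p = 0.16). In KO it had 6061 and 4020 at GV and 2378 and 5301 at GVBD, groups that overlap.

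Med31, a middle subunit of Mediator, had its lowest values at GVBD in WT. Scaled counts were 18406 and 11961 at GV, only 4984 and 4367 at GVBD, and 22515 and 15356 once MII was reached. Both GVBD libraries lay below all other WT libraries, and the log2 fold change was -1.70 ± 0.38 from GV to GVBD (edgeR adjusted p = 0.25) and 2.02 ± 0.64 from GVBD to MII (adjusted p = 0.0085). In KO it had 17081 and 13541, 10624 and 12488, and 15619 and 12090. The comparison of MII with GVBD was added after these values had been seen. In it 13 of 93 members were called lower and 1, Med31, higher in WT, beside 27.1% and 0.682% of all genes, and 6 of 94 were called lower in KO, beside 7.12%: Med29, Taf6l, Polr1e, Polr2k, Med7 and Gtf2f2. The rise of Med31 did not pass without WT GVBD replicate 1 (adjusted p = 0.26), WT GVBD replicate 2 (0.22) or WT MII replicate 1 (0.079). With TMM scaling 27 members were called higher and 12 lower in WT in this comparison, against 9.9% and 15.7% of all genes, and Med31 (2.94), Med25 (2.07) and Med10 (2.00) had the largest rises. Gtf2b, the TFIIB gene, had the same shape, with 19164 and 14249, then 9183 and 9774, then 19305 and 12392 in WT, and 24076 and 19553, 23021 and 17163, and 17081 and 8977 in KO. Its changes did not pass on the spike-in scale (adjusted p = 0.78 from GV to GVBD and 0.40 from GVBD to MII). The genotype difference in the change from GV to GVBD, also added later, was 1.29 ± 0.44 for Med31 (edgeR adjusted p = 0.51) and 2.66 ± 0.77 for Polr2l (0.42), and it was not called for any of the 94 members tested (0.00936% of all genes), with 6 at an unadjusted p under 0.05 and 1 called by DESeq2.

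**Figure D4:**
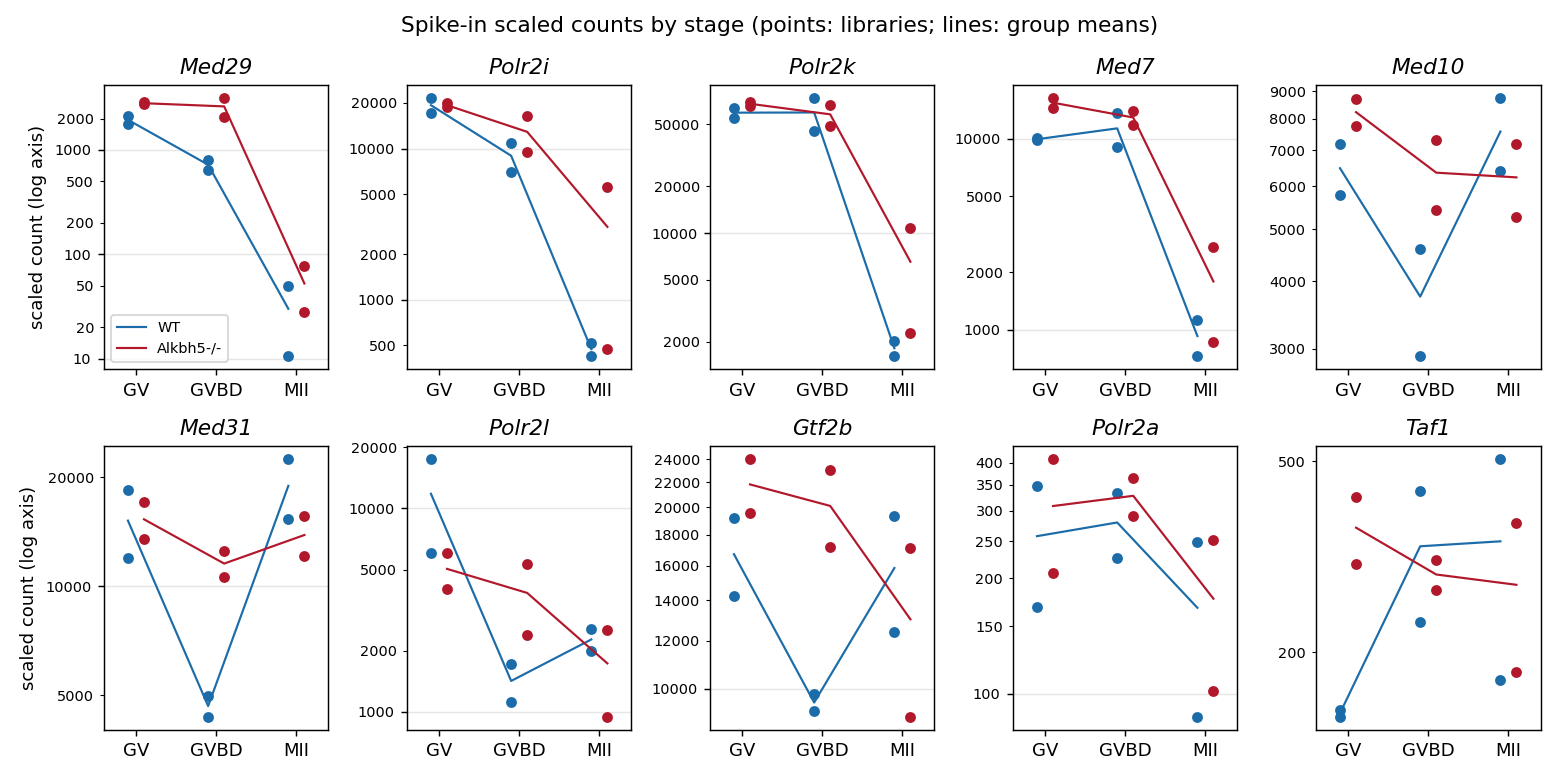
Scaled counts (log axis, each panel with its own range) of 10 members by stage, with points for libraries and lines through the group means, WT in blue and Alkbh5-/- in red. Med29, Polr2i, Polr2k and Med7 drop at MII, the WT means of Med31, Med10 and Gtf2b are lowest at GVBD, of which Med31 from GVBD to MII passed the test, and Polr2a and Taf1 have overlapping genotypes at MII.

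Between genotypes no member passed at any stage taken by itself. At GV 0 of 93 members were called (0.0977% of all genes were), with 24 at an unadjusted p under 0.05 in the edgeR test and 1 called higher by DESeq2 (2.72% of all genes). KO over WT had a median of 0.37 on the log2 scale for the members and 0.36 for all genes, and 88 of 93 members had a value above 0. TMM scaling brought both medians near 0 (0.02 and 0). The study reports a smaller diameter and a changed nuclear configuration in KO GV oocytes, and their part in these values was not tested. Polr2l was lowest (-1.23). Taf7 had 4790 and 4047 in WT GV and 8224 and 7438 in KO GV (0.83 ± 0.18, edgeR adjusted p = 0.15), and Med17 had 2984 and 2963, and 5480 and 4942 (0.81 ± 0.17, adjusted p = 0.14). Both pairs of groups were separate, without passing the test.

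At GVBD 0 of 94 members were called (2.54% of all genes were), with 13 at an unadjusted p under 0.05, and DESeq2 called 4 higher (4.26%, beside 2.45% of all genes). The median was 0.51 for the members and 0.23 for all genes. Among the highest values were those of Taf6l, with 113 and 209 in WT and 1131 and 349 in KO (2.20 ± 0.65, edgeR adjusted p = 0.080) and Med29 (1.86 ± 0.53, adjusted p = 0.068). Med15, a tail subunit, had 70.7 scaled counts in KO GVBD replicate 1, from 43 counts, and 1550 in replicate 2, and it lay between 556 and 1808 in the other libraries. It was not called. Summed granulosa markers were 73.6 and 52.5 CPM in KO GVBD and 43.3 and 52.5 in WT GVBD, with 1 of 7 tested, Fshr, called higher in KO (3.38), and their part in the values at GVBD was not tested.

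At MII 0 of 93 members were called (0.803% of all genes were), with 5 at an unadjusted p under 0.05 and 1 called higher by DESeq2 (1.48% of all genes). Among the highest values were those of Polr2i (2.69 ± 0.87, SE; edgeR adjusted p = 0.13) and Med26 (2.27 ± 0.97, adjusted p = 0.42), and the 3 lowest were Taf9 (-1.35), Gtf2i (-1.18) and Polr1b (-1.17). Med26, which helps recruit elongation factors, had 87.7 and 94.0 scaled counts in WT beside 837 and 40.8 in KO, so that its KO libraries lay on either side of the WT ones. Without KO MII replicate 1 its value was -1.15, and without KO MII replicate 2 it was 3.20 and passed (adjusted p = 0.038). Polr2i also rested on KO MII replicate 1: its KO values were 5600 and 472 beside 518 and 425 in WT, and without that library the difference was 0.00, while without KO MII replicate 2 it was 3.57 and passed (adjusted p = 0.031). The median over the members was 0.28 beside 0.30 for all genes, and TMM scaling gave -0.10 beside 0. In simulated data the test between genotypes at MII called 11 of 100 genes changed by 2 on the log2 scale and 39 of 100 changed by 3.

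Over all stages 1 of 94 members was called higher in KO by edgeR, where 0.9% of all genes were, and 0 were called lower. The median was 0.41 for the members and 0.29 for all genes, and 21 members had an unadjusted p under 0.05. The call was lost on leaving out any of 10 of the 12 libraries.

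Another 61 genes of the pathway lie outside the name rule and include TBP and its relatives, kinases, elongation factors and the factors of polymerases I and III. From GV to MII 24 of the 61 were called lower in WT (39.3%, beside 30.5% of all genes, with a median of -1.03) and 3 in KO (4.92%, beside 3.28%), and 0 were higher in either, and 0 were called by edgeR between the genotypes at GV, GVBD or MII, with 12, 7 and 2 at an unadjusted p under 0.05. Cdk7, the kinase of TFIIH, had 9762 and 8769 scaled counts in WT GV and 3268 and 2166 in WT MII (log2 fold change -1.77, edgeR adjusted p = 0.0015), and its partner cyclin Ccnh changed by -3.44. Supt4a, a subunit of the elongation factor DSIF, changed by -4.50 and Drap1, a subunit of the repressor NC2, by -4.31, and with Ccnh they were the 3 called in KO. Cdk8 and Ccnc, the kinase and cyclin of the Mediator kinase module, were both called lower in WT (-1.35 for Cdk8), while 0 of the 4 Med genes of that module were. Tbp (0.01), Tbpl2 (-0.26) and Taf4b (-0.29) were not called. In KO, Cdk7 had 16071 and 13436 scaled counts at GV and 7576 and 4803 at MII. These lay above both WT libraries of the same stage, without a call between genotypes by edgeR. The study names Cdk7 among the genes upregulated in KO MII oocytes.

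The 3′ ends of these transcripts are shown because stored oocyte messages are known to gain or lose poly(A) tails through short elements near their end. Of interest are the polyadenylation signal (AATAAA or ATTAAA) and the cytoplasmic polyadenylation element (CPE, here TTTTAT or TTTTAAT), which were searched on the sense strand in the last 100 bases of 1 annotated transcript per gene, or in the 3′ UTR where that was shorter. A TTTTAAT can overlap an AATAAA. Of the 24 members called lower in WT at MII 3 held a CPE (12.5%), and of the 69 not called 17 did (24.6%), where 17.0% of 21022 genes did. A polyadenylation signal was found in 23 of the 24 (95.8%), in 55 of the 69 (79.7%) and in 76.8% of all genes. Stretches of 30 bases from GENCODE M21 transcripts on GRCm38 are given 5′ to 3′ in lower case, with these motifs in capitals, first for 4 of the members that fell most and held a signal, and then for the 4 uncalled CPE holders with the highest level per kb in WT GV. Of the first 4, Polr2k is the one with a CPE. Polr2k, Med10, Gtf2a2 and Polr2b also held a signal in the bases searched, outside the stretch shown.
Polr2i, chr7:30233356-30233385, + strand: tcttccacctgtAATAAAtgccagtttcta
Polr2k, chr15:36176908-36176937, + strand: gtaTTTTAATactttgtataaaggaaattt
Med7, chr11:46442677-46442706, + strand: atgaacaattggAATAAAatatggacgctg
Polr1d, chr5:147079048-147079077, + strand: gtatatttgcctAATAAAttctctcttttg
Med31, chr11:72211724-72211753, - strand: attTTTTATtAATAAAttatttctatttaa
Med10, chr13:69816006-69816035, + strand: cggTTTTATagttacattttcagatgttgt
Gtf2a2, chr9:70022669-70022698, + strand: tttTTTTAATgacaaatcaaaagtggttgc
Polr2b, chr5:77349256-77349285, + strand: gaaTTTTATttgttttgtttaaagctacat
All 8 stretches lie in the annotated 3′ UTR. In the Med31 stretch the CPE and the signal have 1 base between them. The spacing of the motifs was not compared between genes, and its part in the changes was not tested. Transcript ends used in oocytes were not measured here, so the annotated end may differ from the one in use. Over the 93 members the WT change from GV to MII had little relation to transcript length (Pearson's r = 0.25) or to the length of the 3′ UTR (r = 0.08), as a description across genes.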

How the data were processed

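The deposited values were counts of reads per gene, which the authors made with cutadapt 1.9, HISAT2 2.0.4, StringTie 1.3.4d and the mouse build mm10 (GRCm38), as the submitters' processing notes list. The methods describe amplification of full-length cDNA from poly(A) priming and the labels a bulk strand-marking protocol, so library type and strand are not settled. The annotation release is not given in the sources used here. Counts were fitted with edgeR 4.0.16 (R 4.3.3), two-sided, with library sizes in proportion to ERCC totals and filterByExpr on total counts. There were 9 comparisons, and 3 were added after values were seen. The fit was tested on simulated data. Symbols matched 52073 genes. Members and lists were chosen with earlier results of these data known. Named genes were those passing between genotypes, the 5 lowest and 5 highest calls of the stage comparisons with a median of at least 50 counts, the 3 highest and 3 lowest of KO against WT at MII, the highest and lowest level per complex, paralogue pairs and catalytic or defining subunits. A gene that the rule names is not reported here and not drawn. Other names were chosen after values were seen. Alternatives were TMM, median-of-ratios scaling, no filter, DESeq2 1.42.0, all libraries in 1 model, replicate number as a block, and omission of each library in turn. With 2 libraries per group, p-values rest on the spread between these samples, which edgeR moderates across genes within each comparison. Their size is thus not comparable between comparisons, such as those in WT and in KO. Counts without molecular identifiers are not independent molecules.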

Additional observations from a re-analysis of the deposited data

Results flagged for a closer look

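The 89 members that reached a mean of 50 counts were screened for genotypes that separate in opposite directions. In 8 of them both KO libraries lay above both WT libraries at 1 stage and both below them at another. The share of all genes with this pattern was not counted, so the 8 are not shown to exceed it. Values are log2 fold changes of KO against WT. Taf9, a TFIID subunit, had 1.34 at GV and -1.35 at MII, and the test of the difference between these stages did not pass (-2.69 ± 1.41, SE; edgeR adjusted p = 0.96). Polr1e had 0.37 at GV and -0.97 at MII (difference -1.33, edgeR adjusted p = 1). Polr2e, a subunit shared by the 3 polymerases, had -0.30 at GV and 1.16 at GVBD (difference 1.46, edgeR adjusted p = 0.56). Taf11 had -0.22 at GV and 0.21 at GVBD (difference 0.43, edgeR adjusted p = 0.94), and Taf15 had 0.45 and -0.72 (difference -1.17, edgeR adjusted p = 0.79).

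Taf13 had 0.52 at GV, 0.25 at GVBD and -0.44 at MII (difference between MII and GV -0.96, edgeR adjusted p = 1). Polr2h had 0.55 at GVBD and -1.08 at MII, and Taf8 had 0.89 and -0.44. The difference between GVBD and MII was not tested for these 3 members. No group was large enough for a search for samples standing apart.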

How the results depend on the processing

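Counts of members called moved by over 1.5 times in these cases, and the cause was not tested. With TMM scaling they were 37 (21 higher, 16 lower; median of the members 0.33) from GV to MII in WT, 8 (median 0.25) in KO, 39 (median 0.53) from GVBD to MII in WT and 3 (median 0.04) in KO, and with median-of-ratios scaling 38, 7, 39 and 2. TMM also turned the median of the members at MII between genotypes to -0.10 and from GV to GVBD in KO to 0.06. Without the filter on low counts, 1 member was called between genotypes at GV, 3 at GVBD and 5 over all stages, 13 from GV to MII in KO, 2 from GV to GVBD in WT, and 1 in each test of a genotype difference in a stage change. DESeq2 called 1, 4 and 1 between genotypes in stage order, 5 over all stages, 15 from GV to MII in KO, 3 from GV to GVBD in WT, 11 from GVBD to MII in KO and 1 for the genotype difference from GV to GVBD. All 12 libraries in 1 model gave 1 between genotypes at MII, 16 from GV to MII in KO and 15 from GVBD to MII in KO. A filter on spike-in scaled library sizes, added after seeing the data, gave 1 from GV to MII in KO.

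Leaving out 1 library at a time gave 0 to 2 calls between genotypes at GV and at GVBD, 0 to 3 at MII, 0 to 4 over all stages, 9 to 35 from GV to MII in WT, 0 to 60 in KO, 0 to 1 from GV to GVBD in WT, 0 to 3 in KO, 4 to 15 from GVBD to MII in WT, 0 to 44 in KO, and 0 to 2 for the genotype difference from GV to MII. A lone library in a group was assumed to vary like the others. Med26 at MII between genotypes turned to -1.15 without KO MII replicate 1 and was 3.20 without replicate 2. Replicate numbers are not stated to pair the libraries. After TMM scaling, deviations of same-numbered libraries from their group means correlated between genotypes at -0.22 for GV, 0.14 for GVBD and -0.18 for MII. That scaling removes a shift of a whole library, so an offset shared by same-numbered libraries on the spike-in scale was not examined by it. On the spike-in scale the median member was lower in replicate 2 in every group. With the replicate number as a block, 15 members were called from GV to MII in KO, 2 from GV to GVBD in WT, 28 and 16 from GVBD to MII in WT and KO, and 3 over all stages. The crossed pairing called 0 at GV and 0 at MII between genotypes. With 2 libraries per group, a difference that was not called was not detectable here and is not shown to be absent.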
